A study of Mus musculus with 25 samples.

Results

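MicroRNA genes that lie outside the Dlk1-Dio3 domain were described in the embryonic mammillary neuroepithelium, a part of the hypothalamic wall that gives rise to the mammillary body. The array carried 310 transcript clusters with a single microRNA symbol (Mir followed by a digit, or Mirlet7), and 84 of these lay on chromosomes 12, X and Y and were set aside. Of the remaining 226 clusters, 64 had a mean of at least 4 on the log2 scale over the wild type arrays and make up the set described here, out of 28940 clusters tested in all. They stand for 62 gene symbols on 18 chromosomes. In all, 60 of them are annotated as microRNA hairpins and 4 as the long non-coding RNAs that contain microRNAs (Mir17hg, Mir100hg, and Mir99ahg with 2 clusters). The members were chosen by their mean over the WT arrays, so their WT levels are a description, and the same wild type arrays enter every difference between the genotypes.

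The samples were 13 KO embryos and 12 WT embryos, all C57BL/6 at E10.5, with the tissue dissected and hybridised on an Affymetrix Mouse Gene 1.1 ST array, 1 array per sample. KO embryos were homozygous for an altered Lhx5 allele that per the study's methods is floxed, not recombined by Cre, and a hypomorph. WT embryos carried the unaltered gene. The Lhx5 cluster itself ran from 7.43 to 8.61 in KO and averaged 7.92, against a mean of 7.97 in WT and WT values from 7.67 to 8.38 (difference -0.04, limma adjusted p = 0.96). Because the allele keeps its exons, this level does not check the labels. Markers of the labelled tissue were present: 13 measured genes that include Foxb1, Sim1, Nkx2-1 and Sox2 had means from 5.24 to 12.08 in KO and from 6.25 to 12.11 in WT. Embryonic globin RNA was present too, with Hba-x at 12.64 in KO and 12.58 in WT. Array medians lay between 4.64 and 4.76.

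The KO arrays formed 2 sets. For every member the mean of KO replicates 1 to 10 equalled the mean of KO replicates 11 to 13 to within 4.33e-06, so replicates 1 to 10 add nothing to the difference from WT, and how this came about is not given in the sources used here. The fit therefore had a term for KO replicates 1 to 10, and each difference below is that of KO replicates 11 to 13 against the 12 WT samples. WT replicate 11 stood apart in 4 marker lists: its mean centred level was -0.82 for the neuronal list, -0.74 for the endothelial list, -0.71 for the macrophage list and -0.62 for the mesenchyme list, while the lowest of the other WT samples was at -0.38, -0.14, -0.53 and -0.37 for the same lists. Host and neighbour correlations and neuronal slopes that rest on it are given with and without it. Slopes on the other marker lists are given with it only.

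MicroRNAs are short RNAs cut from hairpins within longer primary transcripts. Drosha and its partner Dgcr8 free the hairpin in the nucleus, Dicer1 cuts it to a duplex in the cytoplasm, and an Argonaute protein carries 1 strand of it to messenger RNAs, which it recognises mainly through the seed at bases 2 to 8. Loci that share a seed are grouped as a family, and many families have several copies in the genome. In the developing brain miR-9 and miR-124 are known for their part in neuronal differentiation, the let-7 family for its rise as tissues mature and its control by Lin28 proteins, and the miR-17-92 cluster and its paralogs for their activity in dividing progenitors. The labelled samples were total RNA and the probes lie at the hairpin locus. Whether a cluster read the primary transcript, the precursor or the mature RNA was not tested, and levels of different clusters depend on their probes and cannot be ranked against each other.

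Mature sequences were found in RefSeq's table for 51 members and are credited to RefSeq (GRCm38.p6), whose coordinates are given since the build behind the array's probes is not given in the sources used here. The first set is shown because 4 members share its seed, which is in capitals, although they lie at 3 chromosomal sites. The family is miR-181, known in mice from immune cells and the nervous system, and its 5′ arms came from chr2:38852741-38852763 and chr2:38853845-38853868 (both plus strand), chr1:137966650-137966673 (plus strand) and chr8:84178924-84178945 (minus strand).
Mir181a-2: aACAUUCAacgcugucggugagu
Mir181b-2: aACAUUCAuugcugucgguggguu
Mir181b-1: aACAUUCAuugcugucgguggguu
Mir181c: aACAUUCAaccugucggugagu

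The second set shows the let-7 members, again with the seed of the 5′ arm in capitals. They lie at chr15:85707325-85707346 (plus strand), chr16:77599672-77599693 (plus strand), chr13:48536078-48536099 (minus strand) and chr17:17830366-17830387 (plus strand).
Mirlet7b: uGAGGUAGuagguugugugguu
Mirlet7c-1: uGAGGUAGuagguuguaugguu
Mirlet7d: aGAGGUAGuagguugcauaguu
Mirlet7e: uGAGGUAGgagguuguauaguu

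The next set holds 3 pairs of members that share the seed of their main arm, which are miR-130 with miR-301 (chr2:84741116-84741137, minus strand, and chr11:87113054-87113076, plus strand), miR-25 with miR-92b (chr5:138165332-138165353 and chr3:89227126-89227147, both minus strand), and the miR-99 pair (chr16:77598940-77598961 and chr17:17830194-17830215, both plus strand). Mir30a and Mir30e also shared the seeds of both arms, and Mir301 and Mir301b shared the seed of 1 arm, and they are not printed.
Mir130a: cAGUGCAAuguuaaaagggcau
Mir301: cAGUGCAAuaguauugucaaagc
Mir25: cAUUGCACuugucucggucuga
Mir92b: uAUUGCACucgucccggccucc
Mir99a: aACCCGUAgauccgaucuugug
Mir99b: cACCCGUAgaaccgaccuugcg

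The last set of mature sequences belongs to members that the results below turn on and whose seed no other member with a sequence shared. For Mir135b the 3′ arm is printed, with the seed of that arm, and for the others the 5′ arm. Their sites were chr13:83738821-83738843, chr14:61632075-61632096, chr14:115043867-115043889, chr11:77078122-77078144, chr1:132198142-132198163, chr5:48223966-48223986 and chr7:142577112-142577133, in the order of the lines, on the plus strand except for Mir15a, Mir423 and Mir675.
Mir9-2: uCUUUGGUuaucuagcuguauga
Mir15a: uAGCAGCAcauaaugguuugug
Mir18: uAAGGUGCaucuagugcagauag
Mir423: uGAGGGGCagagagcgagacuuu
Mir135b: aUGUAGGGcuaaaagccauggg
Mir218-1: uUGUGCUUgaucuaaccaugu
Mir675: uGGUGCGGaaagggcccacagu

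For miR-9 the hairpins are shown too, because 3 loci give the same mature arms (capitals) from precursors that differ in their loops and flanks, and each has a cluster of its own on the array. They lie at chr3:88215598-88215686, chr13:83738814-83738885 and chr7:79505264-79505353, all on the plus strand.
Mir9-1: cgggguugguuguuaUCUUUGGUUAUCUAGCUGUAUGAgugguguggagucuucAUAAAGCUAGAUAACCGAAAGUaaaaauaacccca
Mir9-2: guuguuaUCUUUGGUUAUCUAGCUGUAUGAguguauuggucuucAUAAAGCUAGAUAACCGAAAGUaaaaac
Mir9-3: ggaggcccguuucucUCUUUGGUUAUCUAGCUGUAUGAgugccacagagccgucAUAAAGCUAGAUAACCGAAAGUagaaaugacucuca

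The members were mostly dim. Their WT means ran from 4.04 to 10.42 with a median of 4.86, and 33 of 64 lay below 5. Of all clusters tested, 57.2% had a WT mean of at least 4, whereas 28.3% of the eligible microRNA clusters did. The SD over the 12 WT samples ran from 0.09 to 0.57, with a median of 0.21 among the members and 0.14 among all clusters. Just inside the threshold were Mir30a, Mir694 and Mir124a-2 with WT means of 4.04, 4.04 and 4.05. Just outside it were Mir139, Mir7-2 and Mir181d with WT means of 3.91, 3.95 and 3.99.

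By locus, Mir675, the microRNA made from the H19 non-coding RNA, averaged 10.42 in WT (SD 0.21, n = 12). Mir100hg, the long RNA that holds the Mir100 group, averaged 8.46 ± 0.48 in WT, and the members Mir181b-2 and Mir15a averaged 7.46 ± 0.35 and 7.04 ± 0.21. Mir7-1, which lies within the Hnrnpk gene, averaged 6.89 ± 0.14, and Mir92b and Mir9-2 averaged 6.68 ± 0.15 and 6.13 ± 0.57. Mir703 averaged 7.39 ± 0.16 and 1 cluster of Mir692-1 averaged 7.89 ± 0.09, and for both the clusters with neighbouring numbers lie on another chromosome than the annotated one, so their locus is uncertain. Of the 3 miR-9 loci, Mir9-2 passed the threshold and Mir9-1 and Mir9-3 had WT means of 2.90 and 3.28. Of the 3 miR-124 loci, Mir124a-2 passed, and Mir124a-1 and Mir124a-3 had WT means of 2.93 and 3.59.

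None of the loci in 7 lists of microRNAs known from other sites reached a WT mean of 4. These were the 6 Hox locus microRNAs, the 8 muscle microRNAs, the 5 erythroid and blood cell microRNAs, the 5 mesenchymal ones, the endothelial Mir126a, the 4 loci of the mir-200 family of epithelia, and the 5 loci of mir-302 and mir-367, which mark pluripotent cells. The highest WT mean among them was 3.77, at a Hox locus. This gives a level on the array and does not show that the RNAs were absent. Mir486, known from erythroid cells and lying in the span of Ank1, was in none of these lists and was a member, with means of 4.86 in KO and 4.67 in WT.

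The study compared KO with WT to find transcripts that depend on Lhx5. With the term for KO replicates 1 to 10, none of the 64 members passed an adjusted p of 0.05 (limma, Benjamini-Hochberg over all clusters), where 7 of 28940 clusters were called (0.0242%). At an unadjusted p below 0.05, 15 members were lower in KO and 1 was higher. The same threshold was passed by 4.15% of all clusters in the lower direction and by 6.2% in the higher direction. In all, 46 of 64 members had a difference below 0, against 48.2% of all clusters and 58.7% of the clusters with a WT mean of at least 4.

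The median difference of the members was -0.18 on the log2 scale, against 0.01 over all clusters and -0.02 over the clusters with a WT mean of at least 4. Of those brighter clusters, 6.2% were lower at an unadjusted p below 0.05. The choice of members can itself favour negative differences, since a WT mean that is high by chance raises both the odds of entry and the size of a drop. When members were instead taken by the mean over all 25 samples, 63 clusters entered, their median was -0.17, and 14 were lower and 1 higher at an unadjusted p below 0.05. The 162 clusters below the threshold had a median of -0.02, with 10 lower and 5 higher.

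**Figure D1:**
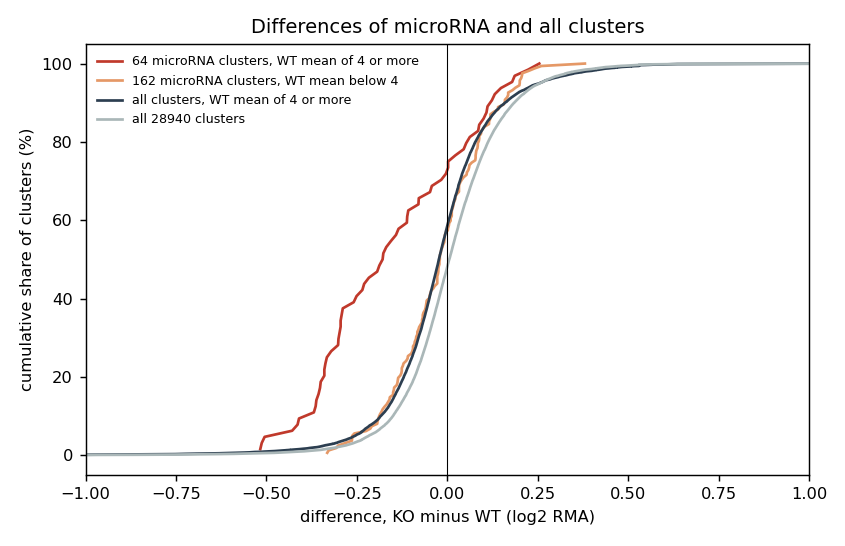
Cumulative share of clusters (vertical axis, percent) against the difference KO minus WT (horizontal axis, log2 RMA) for the 64 microRNA clusters with a WT mean of 4 or more, the 162 below 4, all clusters with a WT mean of 4 or more and all 28940 clusters. The differences of the 64 members start at -0.52, and from there to 0 their curve lies to the left of the others, while the curves of all clusters reach lower values. The medians are -0.18 for the members and 0.01 for all clusters.

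With genotype as the only term, in which all 13 KO arrays count as separate although the means of the 2 KO sets are equal, 21 members passed the adjusted threshold. Of these, 20 were lower and Mir328 was higher, while 6.99% and 9.68% of all clusters were called lower and higher in that fit. That fit takes the equal means as independent values, so its calls are not used as support for any member.

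**Figure D2:**
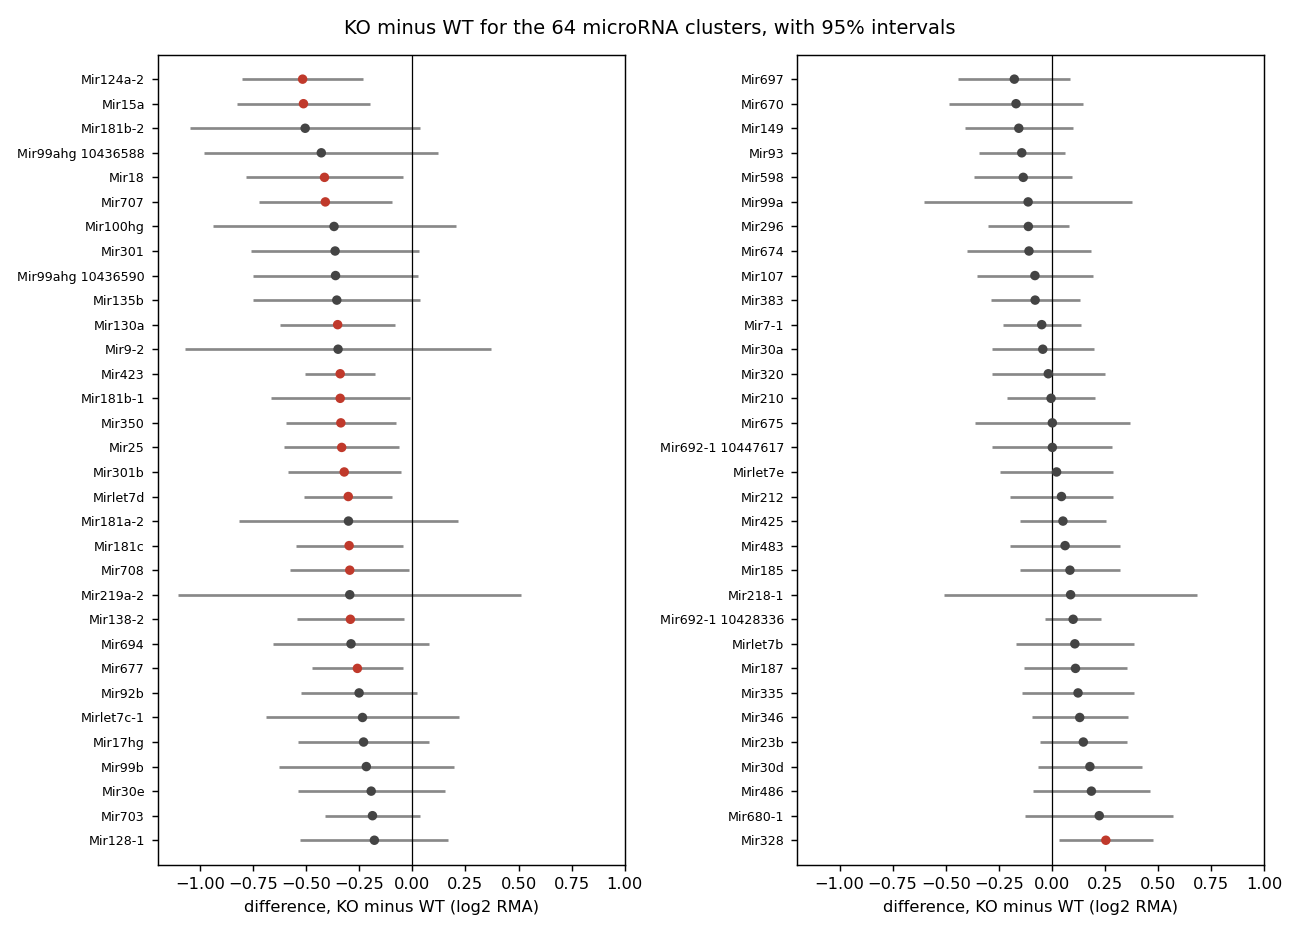
Difference KO minus WT (horizontal axis, log2 RMA) with its 95% interval for each of the 64 members, ordered by the difference. Red points had an unadjusted p below 0.05, which were 15 members lower and 1 higher in KO, and none passed the adjusted threshold. Mir99ahg and Mir692-1 have 2 clusters each and are shown with the cluster number.

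Among loci of neuronal families, Mir124a-2 was at 3.43, 3.42 and 3.75 in KO replicates 11 to 13 and at 3.08 to 3.89 over all KO samples (median 3.47), against 3.74 to 4.37 in WT (median 4.07). Of those 3 KO samples, 2 lay below all WT samples and 1 lay within their range. The difference was -0.52 ± 0.14 (SE, 95% interval -0.80 to -0.23), with an adjusted p of 0.17 in limma and a two-sided exact permutation p of 0.0044 over the 455 assignments of the KO replicate 11 to 13 and WT labels. The KO mean of 3.53 is below the level that chose the members.

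The other miR-124 loci, Mir124a-1 and Mir124a-3, had differences of -0.33 ± 0.12 and -0.26 ± 0.11, with adjusted p of 0.307 and 0.433. Mir9-2 ran from 4.68 to 6.53 in KO (median 5.83), against 5.22 to 7.001 in WT (median 6.04), so the groups overlapped widely. Its difference was -0.35 ± 0.35 (interval -1.07 to 0.37, adjusted p = 0.788), and those of Mir9-1 and Mir9-3 were -0.09 ± 0.15 and -0.26 ± 0.10. All 6 loci of miR-9 and miR-124 had differences below 0, and none passed the adjusted threshold.

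Of the other loci of the neuronal list, Mir138-2 was lower at an unadjusted p below 0.05, with a difference of -0.29 ± 0.12 (adjusted p = 0.396), and its values ran from 3.95 to 4.63 in KO and from 4.41 to 5.04 in WT. Mir219a-2, known from myelinating cells, ran from 4.63 to 7.51 in KO and from 5.34 to 7.01 in WT, with a difference of -0.30 ± 0.39. Mir135b ran from 3.55 to 4.87 in KO, against 4.21 to 5.19 in WT, with a difference of -0.36 ± 0.19 (adjusted p = 0.534). Mir128-1 was at -0.18 ± 0.17 and Mir212 at 0.04 ± 0.12.

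The 4 members of miR-181 all had differences below 0. Mir181c was at 6.02, 5.71 and 6.22 in KO replicates 11 to 13, against 6.03 to 6.55 in WT (median 6.28), and 2 of the 3 KO samples lay below all WT samples. Its difference was -0.30 ± 0.12 (adjusted p = 0.382). Mir181b-1 was at 6.67, 6.11 and 6.85 in those KO samples, against 6.505 to 7.16 in WT, and 1 KO sample lay below all WT samples.

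The differences of Mir181b-1, Mir181b-2 and Mir181a-2 were -0.34 ± 0.16, -0.50 ± 0.26 and -0.30 ± 0.25, with adjusted p of 0.464, 0.517 and 0.728. Their size depended on single KO samples. Without KO replicate 13 the differences were -0.25 for Mir181b-2 and -0.03 for Mir181a-2, and without KO replicate 12 they were -0.12 for Mir181b-1 and -0.16 for Mir181c. Of the loci of the family below the threshold, Mir181a-1 was at -0.16 ± 0.10 and Mir181d at 0.05 ± 0.12. The chromosome 2 pair had the larger standard errors and a wide spread within groups, with Mir181b-2 running from 6.35 to 7.79 in KO and from 6.83 to 8.02 in WT.

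Loci of the miR-17-92 cluster and its paralogs, known for promoting proliferation, had differences below 0 at all 9 clusters that the array reads singly outside chromosomes 12, X and Y, 4 of them members. Mir18 was at 4.79, 4.99 and 5.12 in KO replicates 11 to 13, against 4.84 to 5.76 in WT (median 5.44), and 1 of the 3 lay below all WT samples. Its difference was -0.41 ± 0.18 (adjusted p = 0.417), and that of the host transcript Mir17hg was -0.23 ± 0.15.

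In the paralogous cluster within Mcm7, a helicase gene of replicating cells, Mir25 was at 4.67, 4.89 and 4.91 in KO replicates 11 to 13, against 4.85 to 5.66 in WT. Mir25 differed by -0.33 ± 0.13 and Mir93 by -0.14 ± 0.10 (adjusted p 0.354 and 0.658). The 5 loci below the threshold, Mir17, Mir19a, Mir20a, Mir19b-1 and Mir106b, ranged from -0.33 ± 0.10 at Mir106b to -0.14 ± 0.10 at Mir20a. Over the 9 clusters the median difference was -0.30, and 5 were lower at an unadjusted p below 0.05, beside 4.15% of all clusters. The 9 are not independent. Mir17, Mir18, Mir19a, Mir20a, Mir19b-1 and the host transcript Mir17hg lie together on chromosome 14, and Mir25, Mir93 and Mir106b on chromosome 5. Their counts therefore cannot be set against the share of all clusters as if they were separate loci. Mir18 and Mir17hg were added to this family list after values had been seen. Mir92b, which shares its seed with Mir25, was at -0.25 ± 0.13 and did not pass, and its difference was -0.09 without KO replicate 11 and -0.45 without KO replicate 13.

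**Figure D3:**
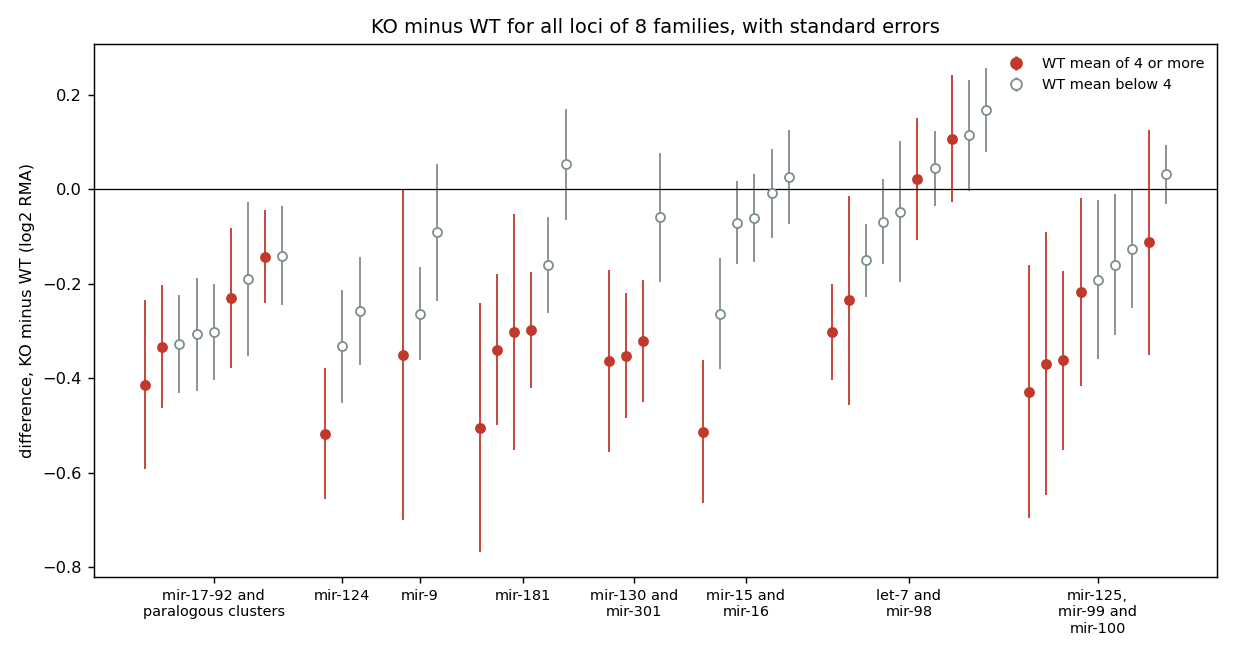
Difference KO minus WT (vertical axis, log2 RMA) with its standard error for every locus of 8 families, filled where the WT mean was 4 or more and open where it was below 4. All 9 points of mir-17-92 and its paralogs and all points of mir-124 and mir-9 lie below 0. The 9 points come from groups of close neighbours and are not independent. The let-7 points lie on both sides of 0.

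Mir15a, which with Mir16-1 lies in the Dleu2 locus and in mouse and human is known for restraining the cell cycle, was without overlap between the groups that define the difference. It was at 6.75, 6.36 and 6.45 in KO replicates 11 to 13 and at 6.02 to 6.96 over all KO samples (median 6.57), against 6.77 to 7.39 in WT (median 7.01). All of KO replicates 11 to 13 lay below all WT samples, which was so for 0.619% of all clusters. The difference was -0.51 ± 0.15 (interval -0.82 to -0.20, adjusted p = 0.217, two-sided exact permutation p = 0.0044). Its neighbour Mir16-1, below the threshold, was at -0.26 ± 0.12.

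Mir423 was the other member without overlap, of 2 in all, and no member lay wholly above WT (0.536% of all clusters). Mir423 was at 4.45, 4.37 and 4.16 in KO replicates 11 to 13, against 4.54 to 4.94 in WT (median 4.62). Over all KO samples it was at 4.04 to 4.45, so all 13 lay below all WT samples. The means of the 2 KO sets are equal, so the other KO samples are no separate support for the difference. No share of all clusters with this wider separation is given. The difference was -0.34 ± 0.08 (interval -0.50 to -0.18, adjusted p = 0.13, two-sided exact permutation p = 0.0022, the smallest the design allows). Mir423 lies in Nsrp1, a gene for a splicing regulator whose own cluster differed by 0.03 (adjusted p = 0.93).

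The 3 members of miR-130 and miR-301 had differences below 0. Mir130a was at 3.97, 4.13 and 3.85 in KO replicates 11 to 13, against 3.98 to 4.70 in WT (median 4.35), with a difference of -0.35 ± 0.13. Mir301b was at 4.05, 3.86 and 4.03 in those KO samples, against 4.04 to 4.66 in WT, with a difference of -0.32 ± 0.13. In both, 2 of the 3 KO samples lay below all WT samples, and the adjusted p were 0.325 and 0.369. Mir301 differed by -0.36 ± 0.19 and Mir130b, below the threshold, by -0.06 ± 0.14.

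4 other members with an unadjusted p below 0.05 belonged to no family above. Mir350, within the centrosome gene Cep170, was at 5.12, 5.09 and 5.17 in KO replicates 11 to 13, against 5.10 to 5.71 in WT (median 5.48), with a difference of -0.34 ± 0.13 (adjusted p = 0.324). Mir707, within Akt1s1, was at 3.76, 4.46 and 4.12 in those KO samples, against 4.04 to 4.85 in WT, with a difference of -0.41 ± 0.15 (adjusted p = 0.323). In both, 1 KO sample lay below all WT samples. Mir708, within the teneurin gene Tenm4, and Mir677, within Atp5b, differed by -0.29 ± 0.14 and -0.26 ± 0.10.

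The let-7 loci had differences on both sides of 0. Mirlet7d was at 4.68, 4.72 and 4.95 in KO replicates 11 to 13, against 4.75 to 5.30 in WT (median 5.12), with 2 of the 3 below all WT samples and a difference of -0.30 ± 0.10 (adjusted p = 0.274). Mirlet7c-1, Mirlet7e and Mirlet7b differed by -0.24 ± 0.22, 0.02 ± 0.13 and 0.11 ± 0.13. Over all 10 loci of let-7 and mir-98 that the array reads singly, 5 were below 0 and 5 above.

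Mir99a and Mir99b, which sit beside Mirlet7c-1 and Mirlet7e, differed by -0.11 ± 0.24 and -0.22 ± 0.20. Of the long RNAs in the same family list, Mir99ahg had clusters that differed by -0.43 ± 0.27 and -0.36 ± 0.19, and Mir100hg was at -0.37 ± 0.28. Mir100hg ran from 7.37 to 8.71 in KO and from 7.42 to 9.09 in WT, so the groups overlapped over most of their range.

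Of the members above 0, Mir328 had an unadjusted p below 0.05. It was at 5.44, 5.56 and 6.00 in KO replicates 11 to 13, against 5.08 to 5.62 in WT (median 5.46), and 1 of the 3 lay above all WT samples. The difference was 0.25 ± 0.11 (interval 0.03 to 0.47, adjusted p = 0.396, two-sided exact permutation p = 0.0681), and without 1 of the arrays in turn it ran from 0.09 to 0.37. Mir680-1, Mir486 and Mir30d followed at 0.22 ± 0.17, 0.19 ± 0.13 and 0.18 ± 0.12. Mir23b, Mir346 and Mir187 were at 0.15 ± 0.10, 0.13 ± 0.11 and 0.11 ± 0.12.

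Mir675 had 10.63, 10.54 and 10.10 in KO replicates 11 to 13 and 9.77 to 10.80 over all KO samples, against 10.11 to 10.83 in WT. The KO and WT means were both 10.42, and the interval of the difference ran from -0.36 to 0.37. Mir483, a microRNA within Igf2 next to H19, was at 0.06 ± 0.13, and Mir335, within the imprinted gene Mest, at 0.12 ± 0.13.

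**Figure D4:**
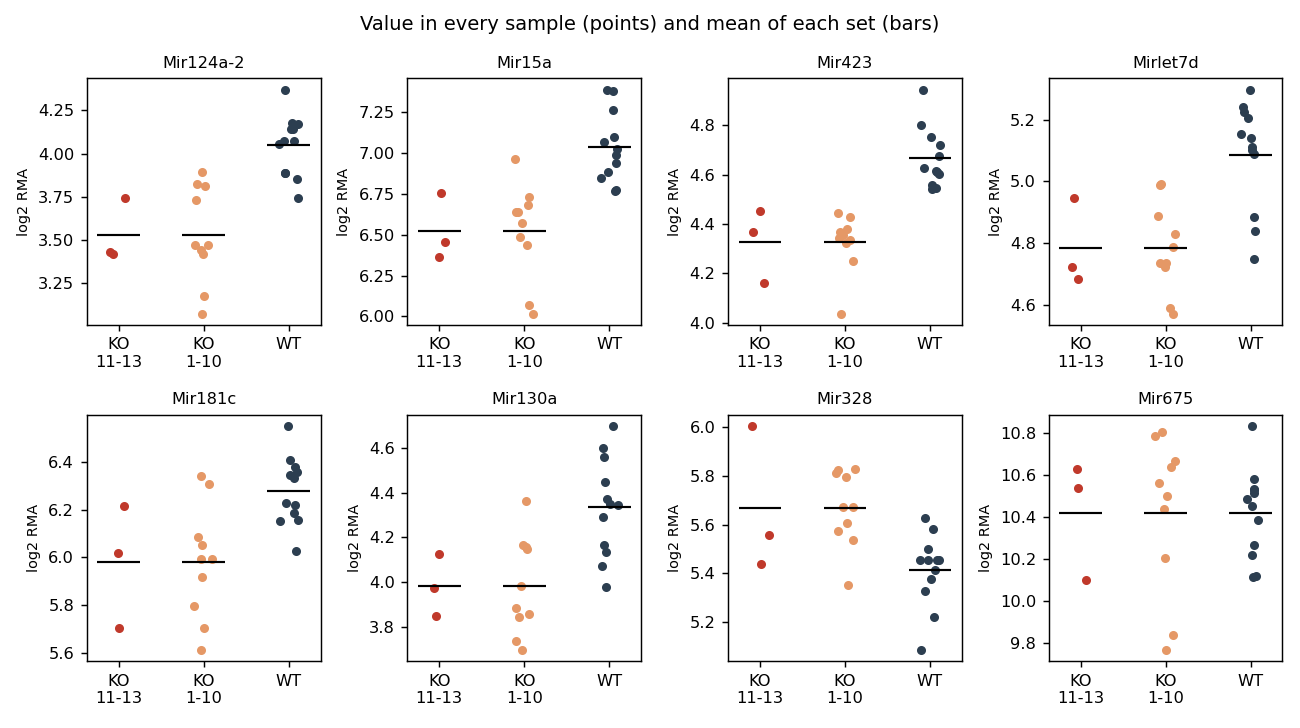
Value of 8 members in every sample (points, log2 RMA) for KO replicates 11 to 13, KO replicates 1 to 10 and WT, with the mean of each set as a bar. The means of the 2 KO sets are equal in the deposited values. The Mir423 points of KO replicates 11 to 13 lie below all WT points. So do the other KO points, which with an equal mean are no separate support. The points of Mir675 share the same range.

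Marker lists of other cell types are given beside these differences, and their part in the results was not tested. All 7 measured neuronal markers had differences below 0, with a median of -0.15, as did 11 of 13 markers of the mammillary neuroepithelium (median -0.16), and none passed the adjusted threshold. The lowest of the mammillary list were Otp at -1.281 ± 0.545, Pax6 at -0.729 ± 0.553 and Nkx2-4 at -0.718 ± 0.195 (limma adjusted p 0.404, 0.696 and 0.179). For Nkx2-4 all of KO replicates 11 to 13 lay below all WT samples, which was so for 0.619% of all clusters. In the same list 2 markers had differences above 0. The mean of the neuronal list ran from -0.13 to -0.07 in KO replicates 11 to 13 and from -0.72 to 0.42 in KO replicates 1 to 10, against -0.82 to 0.66 in WT. Differences above 0, again with none past the adjusted threshold, were found for 9 of 9 epithelium markers (median 0.30), 7 of 7 erythroid markers (median 0.36), 9 of 9 endothelial markers (median 0.10) and 10 of 11 mesenchyme markers (median 0.16). They were also above 0 for 6 of 9 muscle and heart markers (median 0.12) and 6 of 8 macrophage markers (median 0.08). Myh7, a myosin heavy chain gene of heart and slow muscle, had means of 4.07 in KO and 3.47 in WT. Its difference was 0.60 ± 0.12 (limma adjusted p = 0.0546). All of KO replicates 11 to 13 lay above all WT samples, which was so for 0.536% of all clusters. The mean of the erythroid list ran from -0.17 to 0.37 in KO replicates 11 to 13, against -0.67 to 0.63 in WT, and that of the epithelium list from -0.09 to 0.55, against -0.59 to 0.26. No marker is at 0 on this scale, which has no true zero. Fewer cells of a type and less RNA per cell cannot be told apart in these bulk samples.

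Of 29 measured genes that make, modify or use microRNAs, none was called with the term, and 3 were lower and 0 higher at an unadjusted p below 0.05, beside 4.15% and 6.2% of all clusters. Dgcr8, which binds the hairpin for Drosha, averaged 7.81 ± 0.10 in KO and 8.07 ± 0.12 in WT (SD, n = 13 and 12), with a difference of -0.26 ± 0.08 (SE, adjusted p = 0.216, two-sided exact permutation p = 0.00879). Srrt, which links capped primary transcripts to Drosha, averaged 8.54 ± 0.12 in KO and 8.78 ± 0.06 in WT, with a difference of -0.24 ± 0.07 (adjusted p = 0.179). The helicase Ddx5 was at -0.14 ± 0.06 (adjusted p = 0.413).

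Drosha and Dicer1 differed by -0.05 ± 0.06 and 0.01 ± 0.06. The 4 Argonaute genes ranged from -0.14 ± 0.16 at Ago4 to 0.19 ± 0.15 at Ago2. Lin28a and Lin28b, which bind let-7 precursors and block their maturation, were at 0.22 ± 0.36 and -0.23 ± 0.16. The median over the 29 genes was -0.05, with 21 below 0.

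Many members lie within other genes, so their values were set against those of the host. RefSeq spans placed 41 members within a non-microRNA gene, and 24 members had a host on the same strand with a cluster of its own. The clusters taken for Hnrnpk (Mir7-1), Nfyc (Mir30e) and 2610318N02Rik (Mir301b) have numbers that fall among those of other chromosomes. Their locus is uncertain, and they stay in the counts of pairs and hosts. Correlations were computed for these 24 pairs and for 3 pairs with the gene on the opposite strand, over the 12 WT samples and again over KO replicates 1 to 10, with p from 100000 permutations, two-sided, and adjusted over the 27 pairs. Same-strand correlations ran from -0.52 to 0.81 in WT and from -0.62 to 0.92 in KO replicates 1 to 10, and 11 of 24 were positive in both.

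Mir218-1, which lies in an intron of Slit2, a gene for an axon guidance ligand, had a positive correlation with its host in both sets, which passed the adjustment for r in KO replicates 1 to 10 alone. In KO replicates 1 to 10 Pearson's r was 0.92 (permutation p = 0.00042, adjusted 0.0113) and Spearman's rho 0.87 (permutation p = 0.00193, adjusted 0.0521). In WT r was 0.75 (permutation p = 0.00464, adjusted 0.0748) and rho 0.76 (permutation p = 0.00608, adjusted 0.0821). Without the 2 samples farthest from the median of Slit2, r was 0.75 in each set. Of 28939 other clusters, Slit2 ranked 5 by r in KO replicates 1 to 10 and 163 in WT. Neither gene differed between genotypes past the adjusted threshold, with 0.09 ± 0.29 for Mir218-1 and 0.23 for Slit2.

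Other pairs did not hold in the same way. Mir99b and Mirlet7e had r of 0.72 and 0.64 with Spaca6 in KO replicates 1 to 10 (adjusted permutation p 0.193 and 0.276), and 0.81 and 0.73 in WT (adjusted permutation p 0.0794 and 0.0748). Without WT replicate 11 their r in WT was 0.35 and 0.49, so the WT relation rests on that sample. Spearman's rho was 0.79 and 0.81 in KO replicates 1 to 10 (adjusted permutation p 0.082 for each), and 0.58 and 0.38 in WT (adjusted permutation p 0.271 and 0.424). Without the 2 samples farthest from the median of Spaca6, r was 0.53 and 0.24 in KO replicates 1 to 10, and 0.41 and 0.22 in WT. Mir107 with Pank1 and Mir301 with Ska2 had opposite signs in the sets and passed in neither. Their r was -0.47 and -0.62 in KO replicates 1 to 10 and 0.61 and 0.54 in WT. Without WT replicate 11 their r in WT was 0.64 and 0.28. Mir25 and Mir93 had r of -0.28 and 0.11 with Mcm7 in KO replicates 1 to 10 and 0.29 and 0.31 in WT.

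Mir181a-2 and Mir181b-2 lie opposite to Nr6a1, a nuclear receptor gene of early embryos, within a non-coding RNA of its antisense strand. Mir181b-2 had an r of -0.52 with Nr6a1 in KO replicates 1 to 10 (permutation p = 0.118, adjusted 0.362) and of -0.74 in WT (permutation p = 0.00653, adjusted 0.0748), with rho of -0.49 and -0.69 (permutation p 0.153 and 0.0168). For Mir181a-2 the r was -0.30 and -0.57. Without the 2 samples farthest from the median of Nr6a1, Mir181b-2 had an r of -0.47 in KO replicates 1 to 10 and -0.73 in WT.

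**Figure D5:**
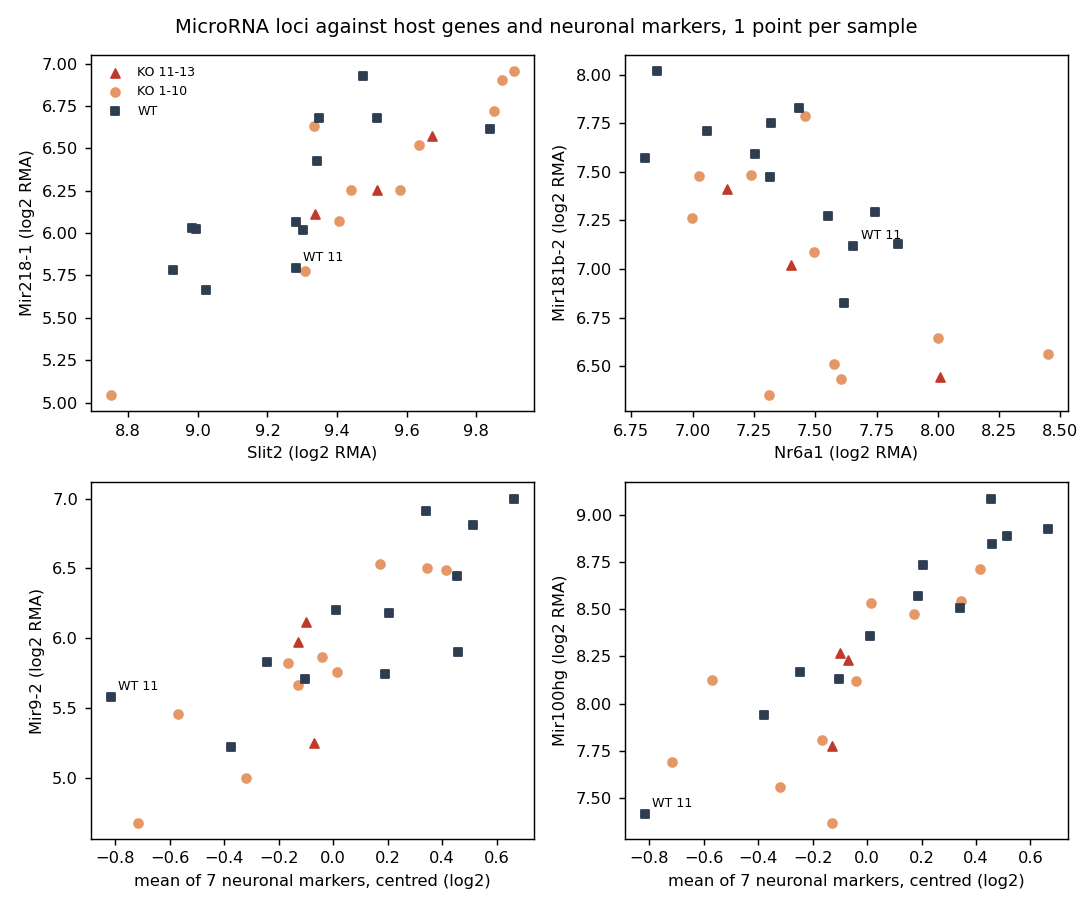
Upper panels show Mir218-1 against Slit2 and Mir181b-2 against Nr6a1, and lower panels Mir9-2 and Mir100hg against the mean of 7 neuronal markers (all axes log2), with 1 point per sample of KO replicates 11 to 13, KO replicates 1 to 10 and WT. For Mir218-1 with Slit2 r was 0.92 in KO replicates 1 to 10 and 0.75 in WT, and for Mir181b-2 with Nr6a1 it was -0.52 and -0.74. WT replicate 11 is marked.

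Hosts showed no called difference either. Of 24 distinct hosts, none passed the adjusted threshold with the term, 3 were lower at an unadjusted p below 0.05 and 0 higher, beside 4.15% and 6.2% of all clusters, and their median difference was -0.04. For Mir15a, with a difference of -0.51, the host cluster Dleu2 was at 0.04, but that cluster had a WT mean of 2.11.

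MicroRNA loci on the same strand and within 10 kb of each other, where at least 1 was a member, gave 25 pairs. In KO replicates 1 to 10, 24 of 25 correlations were positive and 5 passed after adjustment over the pairs. In WT 17 were positive and 1 passed. Some loci enter several pairs, so the pairs are not independent, and no share for unrelated pairs is given. Of 28939 other clusters, Mirlet7c-1 ranked 34 by r with Mir99a in WT and 57 in KO replicates 1 to 10. Mir181b-2 ranked 1533 by r with Mir181a-2 in WT and 18 in KO replicates 1 to 10. Mir99a and Mirlet7c-1 had an r of 0.88 in KO replicates 1 to 10 and 0.86 in WT (adjusted permutation p 0.00762 and 0.0142), the pair that passed in both. Their rho was 0.82 and 0.74 (adjusted permutation p 0.0427 and 0.189), r was 0.78 and 0.75 without the 2 farthest samples, and without WT replicate 11 the adjusted permutation p in WT was 0.056. Mir181a-2 and Mir181b-2 had an r of 0.89 in KO replicates 1 to 10 (adjusted permutation p = 0.00762) and 0.67 in WT (adjusted permutation p = 0.0952), with rho of 0.94 and 0.63 (adjusted permutation p 0.00525 and 0.19) and r of 0.80 and 0.61 without the 2 farthest samples. The other pairs that passed in KO replicates 1 to 10 were Mir181a-1 with Mir181b-1 (r = 0.81, against -0.15 in WT), Mir18 with Mir19a (0.81, against 0.61) and Mir99b with Mirlet7e (0.78, against 0.45), with an adjusted permutation p of 0.0236 each. Without WT replicate 11 the WT r of these pairs was 0.67, 0.42 and -0.13, so the sign in WT rests on that sample for Mir181a-1 with Mir181b-1 and for Mir99b with Mirlet7e. None passed the adjustment in WT with or without it.

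Variation within a genotype followed neuronal markers at some loci, a comparison added after the data were seen. A slope of every cluster on the mean of the 7 neuronal markers was fitted in limma within KO replicates 1 to 10 and within WT, and the neuronal list was singled out from 9 lists tried. In WT 5 of 64 members passed the adjusted threshold, all rising with the markers, against 4.4% of all clusters rising. In KO replicates 1 to 10, 3 of 64 members passed, all rising, against 1.56% of all clusters rising. These shares include clusters with a WT mean below 4, and none is given for clusters as bright as the members. The counts therefore do not show that members followed the markers more often than other clusters. Of the other 8 lists, the macrophage list gave 3 members in WT (Mir181a-2, Mir181b-2 and Mir100hg, against 1.29% of all clusters) and the endothelial list 1 (Mir99b, against 1.13%), all rising, and the rest gave none in either set. None of those 4 also passed without the 2 samples farthest from the median. WT replicate 11 was the lowest WT sample on the macrophage and endothelial lists, at -0.71 and -0.74. Slopes on these lists without that sample alone are not given.

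Mir9-2 and Mir135b passed in both sets. Mir9-2 rose by 1.57 ± 0.21 per unit of the markers in KO replicates 1 to 10 (adjusted p = 0.00395, r = 0.92) and by 1.01 ± 0.23 in WT (adjusted p = 0.0187, r = 0.77). Mir135b rose by 0.94 ± 0.13 in KO replicates 1 to 10 (adjusted p = 0.0053, r = 0.92) and by 0.47 ± 0.13 in WT (adjusted p = 0.0408, r = 0.73). Without WT replicate 11 the adjusted p in WT was 0.0275 for Mir9-2 and 0.208 for Mir135b. Without the 2 samples farthest from the median neither passed in either set, although r of Mir9-2 was still 0.84 in KO replicates 1 to 10 and 0.71 in WT.

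Mir100hg had a slope of 0.88 ± 0.28 per unit in KO replicates 1 to 10 (adjusted p = 0.161, r = 0.69) and rose by 1.09 ± 0.09 in WT (adjusted p = 7.8e-05, r = 0.97). It passed in WT also without replicate 11 (adjusted p = 0.00285) and without the 2 farthest samples (adjusted p = 0.0221, r = 0.91). Mir181a-2 and Mir181b-1 were the other members past the threshold in WT, with adjusted p of 0.00552 and 0.0486, and neither passed without replicate 11 (adjusted p 0.14 and 0.302). Mir30e was the other in KO replicates 1 to 10 (adjusted p = 0.0296, and 0.552 without the 2 farthest samples). Mir18 did not follow the markers over all 12 WT samples (r = -0.01) but fell with them without replicate 11 (r = -0.82, adjusted p = 0.042) and without the 2 farthest samples (r = -0.94, adjusted p = 0.0232).

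The 5 singly annotated genes most like Mir9-2, ranked by the lower of its correlations over 12 WT samples and over KO replicates 1 to 10, were Celf4, Lzts1, Tubb2b, Apc2 and Hes6, with r from 0.93 to 0.96 in both sets. Those most like Mir100hg were Nfia, Tnrc18, Nfib, Tbx15 and Alcam, with r from 0.90 to 0.98. For Mir99a the list held its neighbour Mirlet7c-1. These are descriptions over samples that share their dissection and array processing.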

How the data were processed

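Per the labels, the deposited log2 values come from RMA (background correction, normalization and summary over the probes of a transcript cluster), and the processing notes name Expression Console 1.0 by Affymetrix, R 2.7.0 and affy. Whether arrays were adjusted between sets is not given in the sources used here. In 10 of the authors' columns a few cells hold other, far larger numbers that cannot be log2 values. All 14 cells above 14 were set missing, 0 of them in members. Of 35556 probe sets, 6616 without annotation and at the low end of the numbering were not used. Symbols came from the platform annotation, and chromosomes and hosts from RefSeq. 67 clusters with several symbols that include a microRNA were not used. For Mir703 and 1 cluster of Mir692-1, clusters with neighbouring numbers lie on another chromosome.

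Differences came from limma 3.58.1 in R 4.3.3, with terms for genotype and for KO replicates 1 to 10, two-sided, adjusted over 28940 clusters by Benjamini-Hochberg and called at 0.05. Exact permutation tests covered KO replicates 11 to 13 and WT. The fits were tested on simulated data. The members and lists were chosen with earlier results of these data known, and the patterns of some microRNA families were changed after values had been seen, so families are described without a test. Members were named where called in either fit (at most 15 in each direction), among the 10 largest differences in each direction or the 15 highest WT means, next to the threshold, in a listed family or in a group of close neighbours. Other loci of those families, and pairs singled out for their correlation, were named after their values were seen. The samples are labelled as biological replicates, and their number limits the precision. Alternatives covered the terms, normalization, dim clusters, member level, variance model and each array left out.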

Additional observations from a re-analysis of the deposited data

How the results depend on the processing

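With the term for KO replicates 1 to 10 no member was called, nor under the other settings tried, with the exception of genotype as the only term (21 called), and 0 were called with each of the 25 arrays left out in turn. The median difference of -0.178 ran from -0.195 to -0.137 with an array left out, was -0.112 when dim clusters were left out (36 members remained in the fit) and -0.037 with no minimum level (226 clusters), and lay between -0.19 and -0.142 otherwise. Replicate numbers were not treated as pairs, since same-numbered samples correlated from -0.328 to 0.543 and above 0.1 for 5 of 12 numbers. Adding the replicate block to the term called 0 members, with a median of -0.17. The difference in that fit comes from KO replicates 11 and 12 against WT replicates 11 and 12 alone.

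Of 46 named members followed through the settings, 28 had the same sign in each setting that could be run, among them all 16 with an unadjusted p below 0.05. Signs under the replicate block rest on the few samples named above, with WT replicate 11 among them, and that fit was not repeated without it. Under the replicate block the sign turned for Mir181b-2 (0.012), Mir99ahg cluster 10436588 (0.126), Mir100hg (0.365), Mir301 (0.084), Mir135b (0.170), Mir181a-2 (0.379), Mir99b (0.336), Mir212 (-0.109), Mir483 (-0.189), Mir218-1 (-0.051), Mirlet7b (-0.089), Mir187 (-0.189), Mir335 (-0.231), Mir30d (-0.154), Mir486 (-0.077) and Mir680-1 (-0.307). It also turned for Mir675 with arrays centred (-0.002) and for Mirlet7e with array weights (-0.043). With an array left out, both signs occurred for Mir212 (-0.021 to 0.10), Mir218-1 (-0.041 to 0.189), Mir30d (-0.033 to 0.309), Mir335 (-0.017 to 0.228), Mir483 (-0.081 to 0.217), Mir675 (-0.102 to 0.163) and Mirlet7e (-0.10 to 0.092), 6 of them without KO replicate 13, while Mir181a-2 ran from -0.454 to -0.029, Mir181b-2 from -0.731 to -0.247, Mir181c from -0.415 to -0.16, Mir92b from -0.453 to -0.086, Mir181b-1 from -0.493 to -0.125 and Mir328 from 0.086 to 0.368.

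Genotype as the only term called 5 of 29 processing genes and 4 of 24 hosts, all lower. In that fit 6.99% of all clusters were called lower and 9.68% higher. It takes the equal means of the 2 KO sets as independent values, so these calls are not used as support. Host pairs that passed numbered 0 in WT and 0 without WT replicate 11, and 1 in KO replicates 1 to 10. Members that followed the neuronal markers numbered 5 in WT, 3 in KO replicates 1 to 10, 3 without WT replicate 11 and 2 without the 2 farthest WT samples. The last 2 counts include Mir18, which fell with the markers and was not among the 5. Of the 5, Mir9-2 and Mir100hg passed without WT replicate 11, and Mir100hg alone without the 2 farthest. The causes of these shifts were not tested. Standard errors of the members ran from 0.064 to 0.393, and a member not called is not shown to be unchanged.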
